A study of Mus musculus with 20 samples.

Results

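The genes described here are P2ry12, P2ry13, Tmem119, Cx3cr1, Csf1r, Aif1, Siglech, Sall1 and Selplg, a list of 9 genes used as markers of resting, or homeostatic, microglia. The list is given by gene name, with no threshold on the values, and holds 9 of the 23413 genes counted in the 20 libraries. All 9 were among the 15660 genes that passed the filter on low counts. The libraries were made from cortex RNA of APOE4 knock-in mice (allele Apoe tm1.1(APOE*4)Adiuj), which carry human APOE4 at the mouse Apoe locus, with 1 library per mouse. The mice were aged 22 months, housed singly and given equal calories, and from the age of 10 months they had eaten a carbohydrate-rich control diet (CD) or a ketogenic diet (KD) for 12 months. There were 5 females and 5 males on the CD and 4 females and 6 males on the KD, all of which carried APOE4 and were fasted before collection, so these libraries allow no comparison with another APOE allele. Library names fall into a series S43 and a series S47 of 10 libraries each, and every group has libraries in both.

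Microglia are the resident macrophages of the brain. In the undisturbed brain they survey their surroundings with fine processes and depend on signalling through Csf1r, and their identity is maintained by Tgfb signalling and by transcription factors that include Sall1. When microglia respond to damage or to protein deposits, transcripts such as P2ry12, Tmem119 and Cx3cr1 typically decline while genes of the disease-associated state are induced. Among the 9 genes, P2ry12 and P2ry13 encode receptors for extracellular ADP, Cx3cr1 the receptor for the neuronal chemokine fractalkine, Csf1r the receptor for Csf1 and Il34, and Siglech a sialic acid-binding lectin. Selplg encodes a ligand of the selectins, Tmem119 a membrane protein, Aif1 the actin-bundling protein Iba1 and Sall1 a zinc-finger transcription factor.

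Series S43 was sequenced more deeply, with 21015275 to 29109990 counted reads in a library, than S47, with 12207161 to 17697342. Levels are given as counts-per-million values (CPM), scaled to the counted reads of each library. Xist, expressed from the inactive X chromosome, ranged from 319 to 1364 CPM among females and did not exceed 7.59 CPM among males. Ddx3y, on the Y chromosome, ranged from 164 to 241 CPM among males and did not exceed 1.64 CPM in 8 of the females. The remaining one, CD female E228, had 14 CPM, and values without this library are given where they change a sign or a count. All 41 pairs of libraries within a group differed by more than sampling noise (chi-square over its degrees of freedom 7.25 to 115). Cortical neuron genes were present in every library (Slc17a7, the vesicular glutamate transporter of cortical neurons, averaged 229 to 405 CPM by group). The summed level of 10 genes of the striatum stood apart in KD females E61, E68 and E207 and KD male E59 (2477 to 3715 CPM) and was 1137 CPM in CD female E249, against 239 to 630 CPM in the other libraries. KD male E59 also had 2375 CPM of 10 choroid plexus genes, against at most 57.1 CPM elsewhere. The tissue was not sorted, so that fewer microglia and less RNA per microglial cell cannot be told apart.

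On the mouse genome GRCm38 the genes are spread over 7 chromosomes, and all are annotated as protein coding. P2ry13 (chr3:59207892-59210882) and P2ry12 (chr3:59216272-59262871) are neighbours on the minus strand with 5389 bases between them, and both lie inside Med12l on the opposite strand. Tmem119 (chr5:113793729-113800516) and Selplg (chr5:113818536-113832644) are likewise neighbours on the minus strand, with 18019 bases between them. Siglech (chr7:55768178-55778925) is on the plus strand. Sall1 (chr8:89027235-89044162), Cx3cr1 (chr9:119901616-120069879) and Aif1 (chr17:35170991-35176068) are on the minus strand. P2ry12 shares 9 exonic bases with Med12l. Which strand was counted is not given in the sources used here, so reads of such overlaps cannot be assigned with certainty.

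Promoters of 6 of the 9 genes were read from the RefSeq table. It had none for Tmem119 or Selplg, and that of Csf1r is not reported here. The promoters of the 5 genes whose levels went together across libraries are printed to show the sequence around their start sites. Each run holds 250 bases before and 50 bases after the RefSeq start site (GRCm38.p6), in the direction of transcription. Capitals mark GAGGAA or its reverse complement TTCCTC, the core of the site bound by PU.1, the myeloid transcription factor encoded by Spi1.
P2ry12 (chr3:59262936-59263235, minus strand): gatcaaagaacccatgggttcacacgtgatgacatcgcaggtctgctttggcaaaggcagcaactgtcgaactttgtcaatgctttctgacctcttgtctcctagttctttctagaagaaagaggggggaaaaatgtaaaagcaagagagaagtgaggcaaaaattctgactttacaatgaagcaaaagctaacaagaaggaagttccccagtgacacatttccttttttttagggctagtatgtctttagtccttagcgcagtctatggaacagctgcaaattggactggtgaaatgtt
P2ry13 (chr3:59210833-59211132, minus strand): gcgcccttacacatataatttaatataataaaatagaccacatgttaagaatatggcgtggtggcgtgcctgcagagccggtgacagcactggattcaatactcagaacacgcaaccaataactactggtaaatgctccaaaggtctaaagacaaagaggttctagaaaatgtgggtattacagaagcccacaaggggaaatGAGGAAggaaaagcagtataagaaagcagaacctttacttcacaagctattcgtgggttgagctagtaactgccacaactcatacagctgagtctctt
Cx3cr1 (chr9:120068247-120068546, minus strand): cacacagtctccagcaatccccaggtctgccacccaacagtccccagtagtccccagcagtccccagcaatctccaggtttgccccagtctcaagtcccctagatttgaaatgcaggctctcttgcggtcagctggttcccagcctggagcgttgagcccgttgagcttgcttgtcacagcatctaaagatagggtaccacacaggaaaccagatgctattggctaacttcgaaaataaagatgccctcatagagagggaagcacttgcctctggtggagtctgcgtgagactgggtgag
Siglech (chr7:55767934-55768233, plus strand): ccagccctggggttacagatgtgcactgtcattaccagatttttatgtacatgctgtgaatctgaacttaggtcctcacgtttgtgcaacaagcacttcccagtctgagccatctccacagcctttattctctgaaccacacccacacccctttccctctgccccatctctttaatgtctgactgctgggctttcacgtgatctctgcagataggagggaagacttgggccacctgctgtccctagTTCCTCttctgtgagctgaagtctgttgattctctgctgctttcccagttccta
Aif1 (chr17:35176003-35176302, minus strand): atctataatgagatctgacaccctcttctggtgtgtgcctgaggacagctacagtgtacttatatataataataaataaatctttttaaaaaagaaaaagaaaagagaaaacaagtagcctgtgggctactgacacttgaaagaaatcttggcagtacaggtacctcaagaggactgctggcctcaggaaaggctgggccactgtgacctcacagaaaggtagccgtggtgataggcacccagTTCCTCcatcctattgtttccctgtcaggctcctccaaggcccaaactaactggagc
GAGGAA was found, on either strand, in 3 of these 5 promoters: 48 bases before the start site in P2ry13, 7 before it in Aif1 and 4 before it in Siglech, counted to the first base of the match. Of 32851 promoters in the table, 28.3% hold the same letters. No Sall1 promoter searched, none of them printed, holds GAGGAA. The 5 genes were chosen by their levels in these data, so their count is not a test against that share. The longer form GAGGAAGT, which contains GAGGAA, is in 3.2% of all promoters and in none of these 5. A form of the interferon response element is in the Aif1 promoter, 157 bases before the start site, and in 3.44% of all promoters. CAGAC, a Smad-binding element, is in the promoters of P2ry12, Cx3cr1 and Siglech, in 1 Sall1 promoter and in 49.6% of all.

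Compared per kilobase of exon, P2ry12 was the most abundant of the 9 genes, with 23.6 ± 3.86 CPM per kb (mean ± SD, n = 20 libraries here and in the next sentences). Cx3cr1 followed with 14.4 ± 3.06 and Csf1r with 10.6 ± 2.77 CPM per kb. P2ry13 was at 6.95 ± 1.07, Siglech at 6.09 ± 1.03, Aif1 at 5.4 ± 1.17 and Tmem119 at 4.14 ± 1.40 CPM per kb. Selplg, at 1.89 ± 0.70, and Sall1, at 1.89 ± 0.54 CPM per kb, were the least abundant. P2ry12 stood above Cx3cr1, and Tmem119 above Selplg, by more than their SDs, and each other pair of neighbours in this order had overlapping ranges of mean ± SD. The length used is the union of all annotated exons. For Selplg (4272 bases) and Aif1 (1532 bases) it exceeds the longest transcript (2314 and 875 bases). The gap between Tmem119 and Selplg and the place of Aif1 below P2ry13 depend on that choice. Even the smallest count of a member in a library, 47 reads of Selplg, was well above 0. The spread across mice was larger than counting error: the coefficient of variation over the 20 libraries was between 15.4% for P2ry13 and 37.0% for Selplg, where the median counting error was 5.67% and 7.72%. Tmem119 spanned 4.21 CPM in CD female E265 to 17.9 CPM in KD male E64, and Selplg 3.73 to 16.6 CPM in the same pair of libraries. P2ry12 spanned only 43 CPM in CD male E51 to 82.0 CPM in KD female E68.

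**Figure D1:**
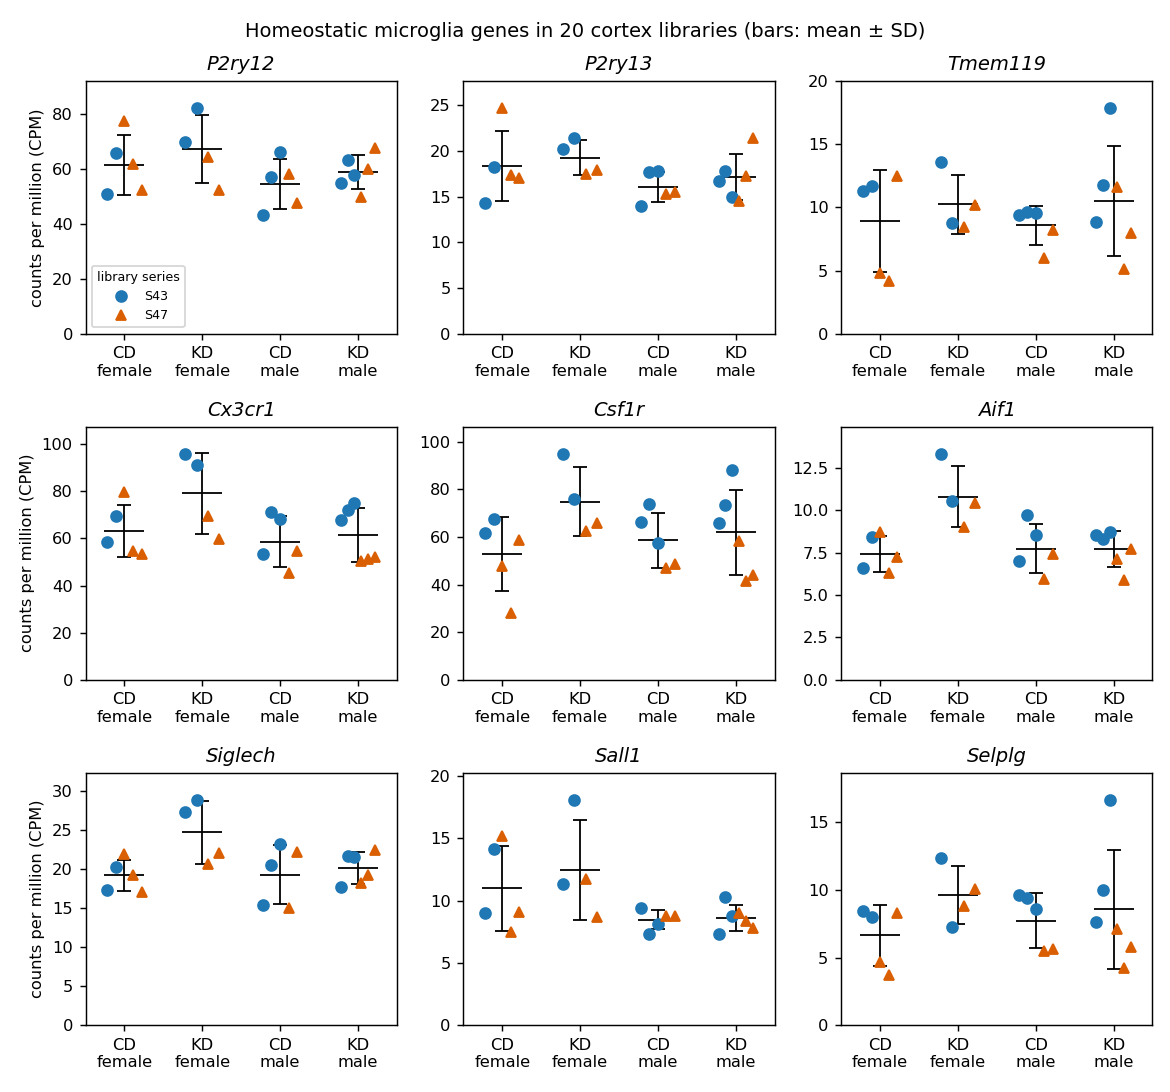
Level of each gene in CPM (vertical axes, from 0) in the 20 libraries, by diet and sex (horizontal axes), with circles for series S43, triangles for S47, and bars for the mean ± SD of a group. KD females lie above all CD females for Aif1 (8.98 to 13.3 against 6.27 to 8.68 CPM), and the groups overlap for the other 8 genes.

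The first question was whether the KD changed these genes in the female cortex. No member was called at the thresholds of FDR 0.1 and a 1.5-fold change (edgeR quasi-likelihood test), where 0.0447% of all genes tested were called. That background is itself set by single libraries: 7 genes were called in all, but 1046 of 15710 without CD female E249 and 906 of 15949 without KD female E227, with no member among them. All 9 had a log2 fold change (KD over CD) above 0, as did 52.7% of all genes tested, and their median was 0.21 against 0.01 over all genes. Aif1 and Csf1r had an unadjusted p under 0.05, as did 11.4% of all genes tested, and without E249 it was 4 members and 2939 of 15710 genes.

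Aif1, whose protein Iba1 is the usual stain for microglia, was at 6.57, 8.39, 8.68, 6.27 and 7.23 CPM in the CD females E62, E67, E249, E265 and E228. In the KD females E61, E68, E207 and E227 it was at 13.3, 10.5, 8.98 and 10.4 CPM. All 4 KD females were thus above all 5 CD females, which held in this direction for 1.7% of all genes tested. The gap between KD female E207 (122 reads) and CD female E249 (106 reads) was smaller than the median counting error of Aif1, 8.18%. The upper-quartile factors of the fit, 1.01 for E207 and 0.977 for E249, are not in these CPM and would bring them closer. The log2 fold change was 0.45 (SE 0.15, 95% confidence interval 0.15 to 0.75), or 1.37-fold, with adjusted p = 0.239 in edgeR. Without CD female E249 it was 0.54 with adjusted p = 0.0359, still under 1.5-fold, and over the mice left out in turn the adjusted p ran from 0.0359 to 0.737. In the Wald test of DESeq2 the adjusted p was 0.0898, also under 1.5-fold. E249 was the CD female with the most striatal RNA (1137 CPM). Without it the summed striatal genes were at 239 to 325 CPM in CD females. KD female E227 had 340 CPM and the other KD females 2477 to 3144 CPM. High striatal RNA thus went with the KD in all of these females but E227, and its part in the Aif1 values was not tested.

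Csf1r, the receptor on which microglial survival depends, lies on the plus strand of chromosome 18 (61100598 to 61132149) and shares 873 exonic bases, 15.1% of its own, with Hmgxb3 on the opposite strand. It was at 61.9, 67.6, 47.9, 28.2 and 58.7 CPM in the CD females, in the same order of mice. The KD females had 95, 76, 62.7 and 65.8 CPM, so that 2 of 4 were above every CD female and the groups overlapped. The log2 fold change was 0.40 (SE 0.15), or 1.32-fold, with adjusted p = 0.281 in edgeR. CD female E265 had the lowest value of all 20 libraries, and without it the log2 fold change was 0.29.

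Selplg had the largest fitted log2 fold change in females, 0.46 (SE 0.25, adjusted p = 0.523 in edgeR), and a wide interval from -0.06 to 0.98. The CD females had 8.42, 8.02, 4.67, 3.73 and 8.31 CPM and the KD females 12.3, 7.24, 8.83 and 10.0 CPM. CD females E249 and E265 were the low libraries, for Selplg as for its neighbour Tmem119, a marker that separates microglia from other macrophages. Tmem119 was at 11.3, 11.7, 4.83, 4.21 and 12.5 CPM in the CD females and at 13.6, 8.79, 8.46 and 10.2 CPM in the KD females. The 2 low CD females thus lay under all KD females and the other 3 among them, and the log2 fold change was 0.12 (SE 0.27, adjusted p = 0.942 in edgeR). It was -0.01 without E265 and 0.38 without E228, so the value of Tmem119 rests on single libraries.

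Siglech, which signals through the adaptor Tyrobp, was at 17.3, 20.3, 21.9, 19.3 and 17.1 CPM in the CD females and at 27.3, 28.9, 20.6 and 22.0 CPM in the KD females. Of the 4 KD females 3 were above every CD female, and the log2 fold change was 0.29 (SE 0.15, adjusted p = 0.485 in edgeR). Cx3cr1 was at 58.5, 69.4, 79.6, 54.6 and 53.4 CPM in the CD females and at 95.9, 91.3, 69.6 and 59.7 CPM in the KD females, with a log2 fold change of 0.21 (SE 0.14, adjusted p = 0.631 in edgeR). The KD females of series S43 were the high libraries for both genes. Without CD female E249, which had the most Cx3cr1 of its group, the log2 fold change of Cx3cr1 was 0.35 with adjusted p = 0.0708 in edgeR, under 1.5-fold. As for Aif1, without E249 high striatal RNA went with the KD in all females but E227, and its part in these values was not tested.

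The purinergic receptors had the smallest log2 fold changes in females. P2ry12 had 50.6, 65.6, 77.2, 61.7 and 52.1 CPM in the CD females and 69.8, 82.0, 64.1 and 52.3 CPM in the KD females. P2ry13 had 14.3, 18.2, 24.7, 17.4 and 17 CPM in the CD females and 20.2, 21.4, 17.5 and 17.9 CPM in the KD females. Both diets overlapped for both receptors, and the log2 fold changes were 0.06 (95% confidence interval -0.29 to 0.41) for P2ry12 and 0.02 (-0.31 to 0.35) for P2ry13. Either interval leaves out a 1.5-fold change, and P2ry13 was at -0.0074 without CD female E228. Sall1, the nuclear factor of the list, was at 9.04, 14.1, 15.2, 7.47 and 9.10 CPM in the CD females and at 11.3, 18.1, 11.7 and 8.67 CPM in the KD females. Its log2 fold change was 0.11 (SE 0.21), and it was -0.12 without KD female E68, the highest library.

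**Figure D2:**
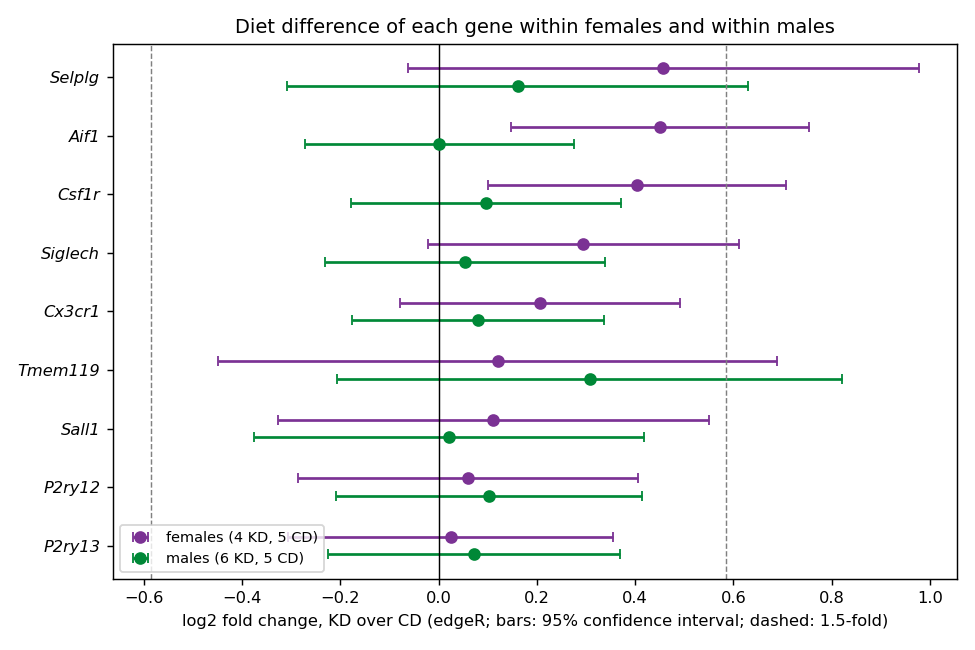
Log2 fold change of KD over CD for each gene (points) with its 95% confidence interval (bars) in females and in males, from 1 edgeR fit of all 20 libraries; dashed lines mark 1.5-fold. The intervals of Aif1 and Csf1r in females lie above 0, and all other intervals include 0.

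Within each library series alone, the diet difference in females took other values for several genes. In S43 alone (2 KD and 2 CD females) 8 of the 9 genes had log2 fold changes above 0, with Aif1 at 0.63 (SE 0.23), Siglech at 0.54 (SE 0.23) and Cx3cr1 at 0.51 (SE 0.17). In S47 alone (2 KD and 3 CD females) the same genes were at 0.32 (SE 0.23), 0.06 (SE 0.20) and -0.02 (SE 0.19). P2ry12 was at 0.35 in S43 and -0.20 in S47, and P2ry13 at 0.31 and -0.22, while Tmem119 went the other way, from -0.08 to 0.30. Sall1 was at 0.31 in S43 and -0.12 in S47. Aif1, Csf1r, Siglech and Selplg were above 0 within both series. No member was called in either series, where 865 of 15966 genes were called in S43 alone and 0 of 15458 in S47 alone (418 at an unadjusted p under 0.05; edgeR). The difference between the series was not tested.

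**Figure D3:**
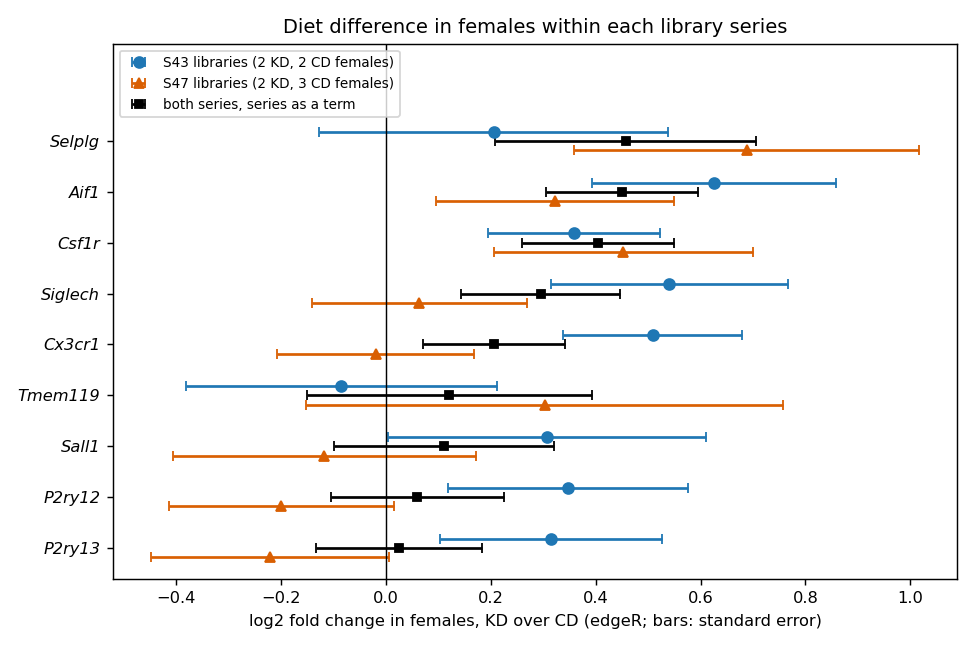
Log2 fold change of KD over CD in females (points, horizontal axis) with its standard error (bars) for each gene, in S43 libraries alone, in S47 libraries alone and in both with series as a term. P2ry12, P2ry13, Cx3cr1 and Sall1 are above 0 in S43 and below 0 in S47, and Tmem119 is the reverse.

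In the males no member was called, nor was any of the genes tested (0% called). No member had an unadjusted p under 0.05, against 3.56% of all genes tested. All 9 log2 fold changes were above 0, as for 49.1% of all genes, and their median was 0.08 against -0.00300 over all genes. They ran from 0.0017 for Aif1 to 0.31 (SE 0.25) for Tmem119. Aif1 was at 7.02, 9.72, 8.55, 5.96 and 7.41 CPM in the CD males E51, E58, E66, E251 and E264 and between 5.89 and 8.71 CPM (median 8.0) in the 6 KD males, so that the diets overlapped over most of their ranges. Its 95% confidence interval, -0.27 to 0.28, leaves out a 1.5-fold change in either direction. Csf1r was at 66.3, 74.1, 57.3, 46.8 and 48.4 CPM in the CD males and between 41.3 and 88.3 CPM (median 62.1) in the KD males. The KD males spanned the whole range of the males for Tmem119 (5.14 to 17.9 CPM, median 10.2) and for Selplg (4.20 to 16.6 CPM, median 7.39). KD male E64 was the highest library for both and KD male E256 the lowest of the males, and without E64 the log2 fold change of Selplg was -0.06.

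The difference between the sexes in the response to the diet was tested as an interaction. No gene of the 15660 was called (0%), and 2.14% had an unadjusted p under 0.05, while without KD female E227 41 of 15949 genes were called, no member among them. Aif1 was the only member of these, with a log2 fold change 0.45 larger in females than in males (SE 0.20, adjusted p = 1.0 in edgeR). For Csf1r the difference was 0.31 (SE 0.20, adjusted p = 1.0 in edgeR). The difference was above 0 for 6 of the 9 genes, as for 51.3% of all genes tested, and below 0 for P2ry12, P2ry13 and Tmem119. Without CD female E228, Csf1r (0.42) was also at an unadjusted p under 0.05 and Tmem119 was at 0.07, above 0. No member was at that p without any 1 of CD males E58, E66 and E264, KD male E256, CD female E62 and KD females E61 and E227.

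Averaged over the sexes, no member was called on the diet, against 0.268% of all genes tested. Csf1r (log2 fold change 0.25, SE 0.10, adjusted p = 0.244 in edgeR) and Aif1 (0.23, SE 0.10, adjusted p = 0.302 in edgeR) had an unadjusted p under 0.05, as did 13.9% of all genes. Without CD female E228 there were 4 such members, with Selplg at 0.41 and Tmem119 at 0.35, and there was 1 without any 1 of CD males E51 and E251, KD male E254, CD female E62 and KD females E61 and E227. Without CD female E249, where 791 of 15710 genes were called, Aif1 (0.27, adjusted p = 0.0941 in edgeR) and Cx3cr1 (0.22, adjusted p = 0.0832 in edgeR) were under the FDR threshold but not past 1.5-fold. E249 was the CD female with the most striatal RNA, whose part in these values was not tested. The summed level of the 9 genes was between 203 and 285 CPM in the CD females and between 257 and 359 CPM in the KD females. It was between 206.6 and 276.6 CPM in the CD males and between 212.5 and 309.6 CPM in the KD males. The highest sums were those of KD females E61 and E68, and the KD and CD groups overlapped in both sexes.

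Females and males were compared over both diets. No member was called, against 0.134% of all genes tested, but all 9 had a log2 fold change (females over males) above 0, as did 50.8% of all genes, with a median of 0.16 against 0.0031. Without CD female E228, Tmem119 was at -0.07 and Selplg at -0.015. Sall1 differed most, with 11.6 ± 3.53 CPM in the 9 females and 8.55 ± 0.888 CPM in the 11 males (mean ± SD). Of the 9 females 5 were above every male, and the log2 fold change was 0.45 (SE 0.14, adjusted p = 0.205 in edgeR). With 1 mouse left out the adjusted p of Sall1 ran from 0.0376, without KD female E227, to 0.550, without KD female E68. Without E227, where 813 of 15949 genes were called, Sall1 (0.51) and Cx3cr1 (0.29, adjusted p = 0.0682 in edgeR) were under the FDR threshold but not past 1.5-fold. The male levels of this transcription factor were close together, and those of the females ranged from 7.47 to 18.1 CPM. Cx3cr1 (0.26, SE 0.09, adjusted p = 0.243 in edgeR) and Aif1 (0.22, SE 0.10, adjusted p = 0.326 in edgeR) also had an unadjusted p under 0.05, which 13.6% of all genes had. Of 22 genes of disease-associated microglia, 8 were higher and 1 lower in females at that p, where 8.59% of all genes were higher. Their median log2 fold change was 0.19. Beside this, 6 of 10 genes of endothelium and mural cells, 3 of 12 of border macrophages and blood cells and 3 of 10 striatal genes were higher in females at that p, and 5 of 10 genes of cortical excitatory neurons were lower. Their part in the sex difference of the microglia genes was not tested.

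The library series was a term in every fit, and its own effect on the members was examined next. Of the 9 genes 1, Selplg, was called lower in S47 than in S43, where 2.01% of all genes tested were called lower and 7.24% in either direction. Without the fold threshold, 4 members had an adjusted p of at most 0.1, all lower in S47, against 15.6% of all genes in that direction. Selplg was at 9.78 ± 2.81 CPM in S43 and 6.38 ± 2.11 CPM in S47 (mean ± SD of 10 libraries), with a log2 fold change of -0.59 (SE 0.17, adjusted p = 0.0179 in edgeR) that lay just past the 1.5-fold threshold. No member was called without 1 of the CD males E51, E58, E251 and E264, the KD males E64, E254 and E256 or the CD females E249 and E265, and 2 were without CD female E228. Csf1r was at 72.6 ± 11.7 CPM in S43 and 50.2 ± 11.3 CPM in S47, a log2 fold change of -0.49 (SE 0.10, adjusted p = 0.00166 in edgeR). No S47 library reached the median of S43 for Csf1r. Tmem119 (log2 fold change -0.48, SE 0.18, adjusted p = 0.0633 in edgeR) and Cx3cr1 (-0.32, SE 0.09, adjusted p = 0.0181 in edgeR) were the other members. P2ry12 (-0.02, SE 0.11), P2ry13 (0.06, SE 0.11), Siglech (-0.06, SE 0.10) and Sall1 (-0.11, SE 0.14) were close to 0, and Aif1 was at -0.20 (SE 0.10, adjusted p = 0.135 in edgeR).

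GC content moved with this difference over the whole transcriptome. Genes were placed in 5 equal bins by the GC content of their longest annotated transcript. The median log2 fold change of S47 over S43 was 0.23 in the bin of lowest GC content and -0.31 in the bin of highest, with 0.10, -0.01 and -0.16 in between. For females over males the bin medians fell from 0.08 to -0.11, and for the diet in females they rose from -0.04 to 0.07. P2ry12 has a transcript of 38.6% GC, P2ry13 of 44.7% and Siglech of 45.5%. Selplg has 49.8%, Cx3cr1 50.3%, Aif1 51.4% and Sall1 51.6%, while Csf1r has 54.5% and Tmem119 59.1%. With an offset for the GC trend of each library, the log2 fold change of Tmem119 between the series was -0.17 and that of Csf1r -0.31, while that of Selplg was -0.57, close to its value without the offset. P2ry12 moved from -0.02 to -0.33 (adjusted p = 0.00149 in edgeR). The diet differences in females changed little with the offset, to 0.42 for Aif1, 0.37 for Csf1r and 0.30 for Siglech, and no member was called.

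**Figure D4:**
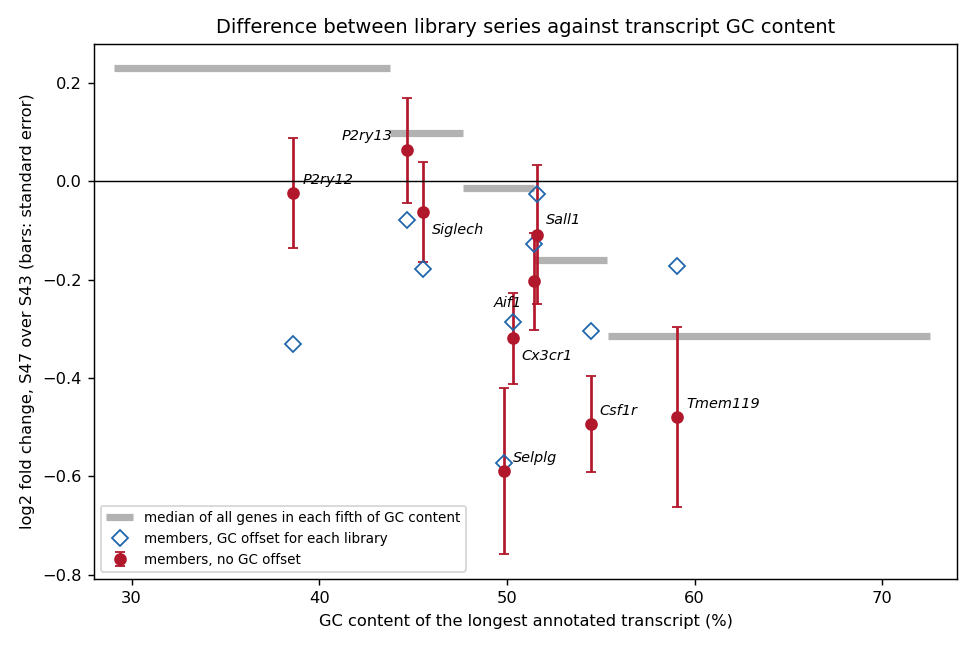
Log2 fold change of S47 over S43 (vertical axis) for each gene against the GC content of its longest annotated transcript (horizontal axis), without (filled circles, with standard errors) and with (open diamonds) a GC offset for each library. Grey bars, the medians of all genes in each of 5 bins of GC content, fall from 0.23 to -0.31, and Selplg stays near -0.57 with the offset.

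Within groups and series the 9 genes did not vary as a single unit. Correlations were computed over the 20 libraries on log2 CPM after group and series means were removed; these are descriptions, since the libraries share depth and base composition effects. P2ry12, P2ry13, Cx3cr1 and Siglech went together (Pearson r 0.71 to 0.87 and Spearman's rho 0.60 to 0.86 over 6 pairs), and Aif1 went with them at r = 0.40 to 0.73. Csf1r, Tmem119 and Selplg formed a second set (r 0.77 to 0.87 and rho 0.67 to 0.78 over 3 pairs). Between the first 4 genes and these 3, r was between -0.52 and 0.04 and was negative in 11 of 12 pairs. Over the 9 females alone it was between -0.75 and 0.0043, and over the 11 males between -0.56 and 0.23, with 5 of the 12 pairs above 0. Without the 2 libraries farthest from the median of the first gene, r was 0.61 to 0.84 in the first set and 0.64 to 0.82 in the second. Both sets were described after their values had been seen.

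The chromosomal neighbours had the highest Pearson r before any GC correction. P2ry12 and P2ry13 had r = 0.87, and Tmem119 and Selplg also had r = 0.87. Among 3084 pairs of adjacent tested genes on the same strand at most 20000 bases apart, the median r was 0.32, and 3.47% and 3.53% of pairs reached the values of these 2 pairs. The split into 2 sets changed with the GC correction, which was chosen after the values had been seen. After the GC trend of each library was removed, r between the sets was between -0.30 and 0.65. Its median was 0.28, against -0.30 without that step. P2ry12 and Tmem119, for example, went from r = -0.52 to r = 0.53. P2ry12 and P2ry13 were then at 0.70 and Tmem119 and Selplg at 0.49, under the 0.86 of P2ry13 and Aif1. The first set had r of 0.53 to 0.70 and Aif1 then went with it at 0.61 to 0.86, while the second set had 0.26 to 0.55. The 3 values between the sets that were then below 0 were all of Selplg, the lowest with Cx3cr1 (-0.30).

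**Figure D5:**
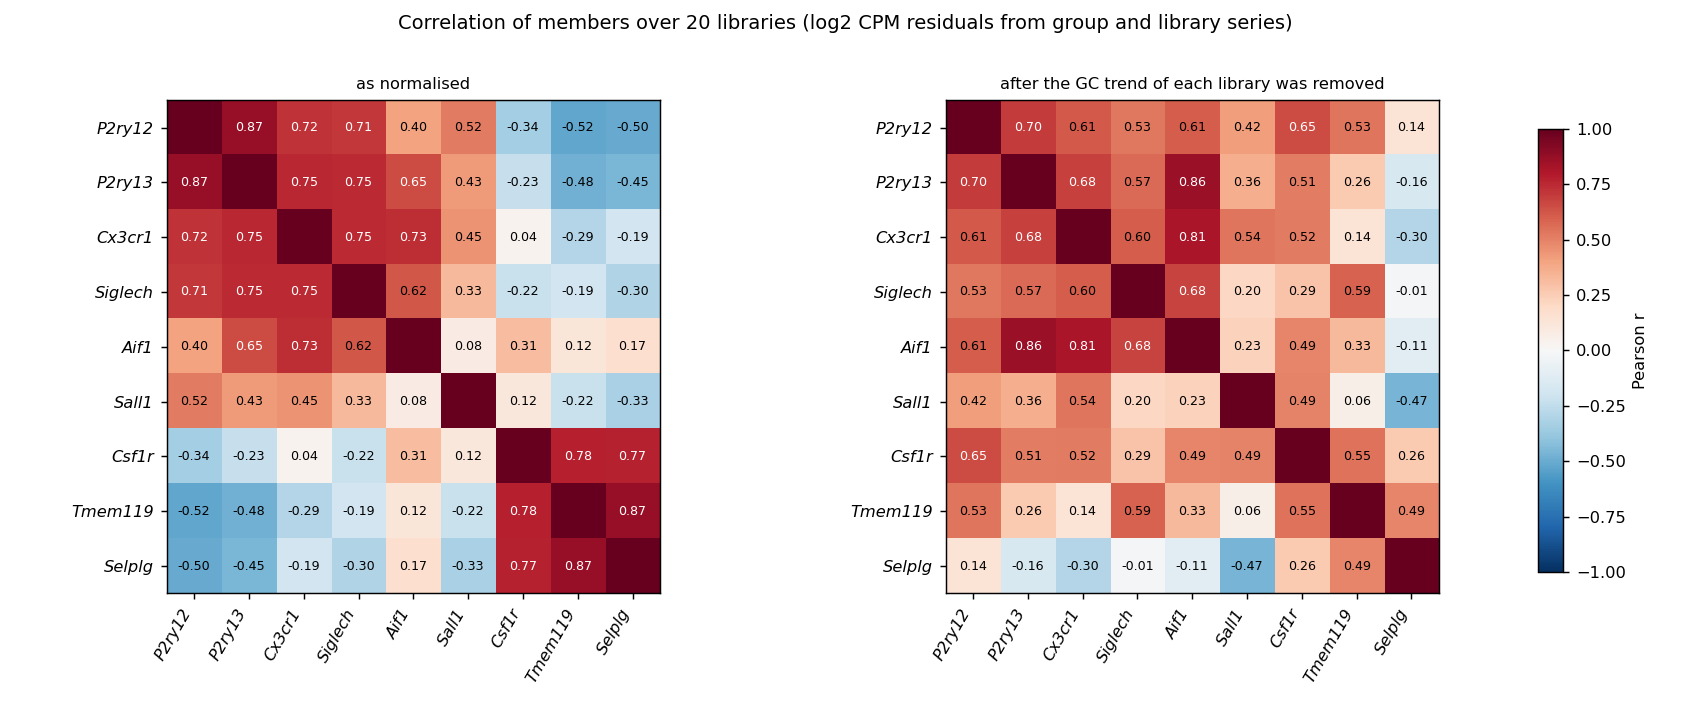
Pearson correlation (colour and number) between each pair of the 9 genes over 20 libraries, from log2 CPM residuals after group and series means were removed, as normalised (left) and after removal of the GC trend of each library (right). On the left the first 4 genes and the last 3 form sets with r of 0.71 to 0.87 and 0.77 to 0.87; on the right most correlations between the sets are above 0.

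The ratio of Csf1r to P2ry12 counts, 2 abundant members of the different sets, gives the contrast in single libraries without a GC correction, after which their r went from -0.34 to 0.65. It was 0.457 in CD female E265 and 0.620 in CD female E249, and 1.54 in CD male E51 and 1.53 in KD male E64. The mean was 1.21 ± 0.229 in S43 and 0.879 ± 0.271 in S47 (SD of 10 libraries).

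Outside the list, 10 genes were selected as most like it, by the Pearson correlation of their residuals with the mean z-score of the members' residuals over the 20 libraries. They were Pard6g, Agtr1a, Capsl, Skap2, Emr1, Itgam, Col25a1, Rsph4a, Erich1 and Cpq, with r from 0.86 to 0.89 and rho from 0.80 to 0.94. The highest r were those of Pard6g, Agtr1a and Capsl, which averaged 5.61, 0.559 and 1.58 CPM. Itgam, the integrin chain of Cd11b, averaged 26.9 CPM, and Emr1, an older name of the gene for the macrophage antigen F4/80, averaged 16.0 CPM. Of the 10 genes only Itgam is in the list of other microglia genes described next. The residuals were not corrected for GC content.

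Other genes of microglia were examined from a list of 42, all of which were tested. In females none was called on the diet, 36 had a log2 fold change above 0, and 13 had an unadjusted p under 0.05, all higher on the KD, where 5.86% of all genes tested were at p under 0.05 and higher. Their median log2 fold change was 0.26, and in males it was 0.08 with 1 gene, Cd68, at p under 0.05. The 3 genes of smallest p in females were Rgs10, Cd68 and C1qb. Rgs10, a regulator of G protein signalling, was at 25.7 ± 5.13 CPM in CD and 38.4 ± 7.69 CPM in KD females (mean ± SD), a log2 fold change of 0.51 (SE 0.14, adjusted p = 0.202 in edgeR). Cd68, a lysosomal protein of phagocytes, was at 3.79 ± 0.691 and 6.05 ± 1.17 CPM, with 0.58 (SE 0.16, adjusted p = 0.202 in edgeR) in females and 0.36 (SE 0.15, adjusted p = 1.0 in edgeR) in males. C1qb, a chain of complement C1q, was at 22.1 ± 6.60 and 34.9 ± 8.72 CPM, with 0.55 (SE 0.17, adjusted p = 0.226 in edgeR). In the comparison of the sexes, 41 of the 42 were above 0 in females over males and 19 had an unadjusted p under 0.05, where 8.59% of all genes were higher at that p. Of these only Gpr34, a lysophosphatidylserine receptor, was called, with 42.9 ± 8.91 CPM in females and 26.7 ± 3.85 CPM in males, a log2 fold change of 0.67 (SE 0.13, adjusted p = 0.0467 in edgeR).

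Among 11 tested transcription factors of microglia none was called on the diet in either sex. In females 3 were higher and 3 lower at an unadjusted p under 0.05, which 11.4% of all genes tested had in either direction. Runx1, a factor of the myeloid lineage, was at 1.13 ± 0.27 CPM in CD and 2.14 ± 0.521 CPM in KD females (log2 fold change 0.90, SE 0.31, adjusted p = 0.270 in edgeR). Irf5, an interferon regulatory factor, was at 2.68 ± 0.627 and 3.94 ± 0.950 CPM (0.46, SE 0.17, adjusted p = 0.297 in edgeR). Mef2c, which cortical neurons also express and which was at 1494 ± 411 CPM in CD and 872 ± 485 CPM in KD females, had -0.86 (SE 0.25, adjusted p = 0.218 in edgeR).

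The ligands of the receptors showed smaller differences. Cx3cl1, the ligand of Cx3cr1 made by neurons, was at 300 ± 129 CPM in CD and 285 ± 44.2 CPM in KD females, a log2 fold change of -0.11 (SE 0.21). Il34 was at 24.2 ± 10.6 and 27.4 ± 7.44 CPM (0.12, SE 0.25) and Csf1, the other ligand of Csf1r, at 15.5 ± 2.97 and 15.9 ± 1.11 CPM (-0.05, SE 0.16). Of the 16 tested ligands and partners none was called on the diet. Panx1, an ATP release channel, and Adam17, a sheddase, were the 2 of these 16 at an unadjusted p under 0.05 in females. That share is close to the 11.4% of all genes tested at that p. Their log2 fold changes were 0.26 (SE 0.11, adjusted p = 0.386 in edgeR) and 0.28 (SE 0.13, adjusted p = 0.417 in edgeR). Nt5e, which makes adenosine, followed with 0.86 (SE 0.42, adjusted p = 0.445 in edgeR), and it had the smallest p of the list in males (0.65, SE 0.37, adjusted p = 1.0 in edgeR).

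Genes of the disease-associated state of microglia were not called on the diet in either sex. Of 22 tested, 16 were above 0 in females, with a median of 0.11, and in males the median was -0.04. In females 4 of the 16 (Axl, Lpl, Timp2 and Trem2) had an unadjusted p under 0.05, where 5.86% of all genes tested were higher at that p. The summed level of these genes was between 1635 and 2185 CPM in CD females and between 1881 and 2362 CPM in KD females. Clec7a, a receptor typical of that state, was at 3.27 ± 2.01 CPM in CD and 5.65 ± 2.32 CPM in KD females (log2 fold change 0.70, SE 0.41) and at 2.51 ± 1.02 and 1.72 ± 0.621 CPM in the males (-0.55, SE 0.37). Trem2 and Tyrobp belong both to this list and to the list of 42 genes.

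None of the markers of other cells was called on the diet in females, but the log2 fold changes of striatal and cortical neuron genes were larger in size than those of the microglia genes. Of 10 striatal genes 8 had an unadjusted p under 0.05, all higher on the KD, where 5.86% of all genes tested were higher at that p. Their median log2 fold change was 2.10, with sums of 239 to 1137 CPM in CD and 340 to 3144 CPM in KD females. Ppp1r1b, which marks striatal projection neurons, was at 22.4 ± 8.99 and 124 ± 73.5 CPM. Of 10 genes of cortical excitatory neurons 5 were lower and 1 higher at that p, against 11.4% of all genes tested in either direction. Their median was -0.77, with sums of 843 to 1922 CPM in CD and 933 to 1533 CPM in KD females. Their part in the microglia values was not tested. Without E249 alone, the KD females had 340 to 3144 CPM of striatal genes and the CD females 239 to 325 CPM, with no overlap. KD female E227, at 340 CPM, was nonetheless close to the CD females. Without E227, E249 and E59 together, the KD females had 2477 to 3144 CPM of striatal genes and the CD females 239 to 325 CPM, so that diet and striatal RNA cannot be told apart in that subset. There 2045 of 15836 genes were called in females and no member, and Aif1 (log2 fold change 0.51, adjusted p = 0.0410 in edgeR) and Cx3cr1 (0.41, adjusted p = 0.0208 in edgeR) were under the FDR threshold. In the same subset 976 genes were called for the interaction, no member among them.

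The remaining lists gave smaller differences in females, where 11.4% of all genes tested had an unadjusted p under 0.05. Of 10 oligodendrocyte genes all were above 0 and none had an unadjusted p under 0.05, with sums of 2752 to 3310 CPM in CD and 3261 to 4205 CPM in KD females, and Mbp at 606 ± 148 and 799 ± 102 CPM. Of 10 astrocyte genes 8 were above 0 and 1, Gfap, was at p under 0.05, with 89.3 ± 16.1 and 134 ± 34.8 CPM, and the sums were 6189 to 7230 and 6373 to 7536 CPM. Of 10 genes of endothelium and mural cells 8 were above 0, none at that p, with sums of 315 to 420 and 318 to 439 CPM and Cldn5 at 12.7 ± 4.84 and 17.2 ± 4.83 CPM. Border macrophages and blood cells, which share some of the 9 genes with microglia, gave 6 of 12 tested genes above 0 and 2 at p under 0.05, S100a8 and S100a9, both lower on the KD. Their sums were 84.0 to 141 CPM in CD and 74 to 167 CPM in KD females, Mrc1, a marker of border macrophages, was at 16.1 ± 7.22 and 20.6 ± 4.37 CPM, Hba-a1 was at 0 in every library, and Cd3e, Ly6c2 and Plac8 were at 0 in some. Choroid plexus genes summed to 11.7 to 37.5 CPM in CD and 26.7 to 47.5 CPM in KD females, with 4 of 8 tested above 0 and Ttr at 6.52 ± 2.40 and 5.57 ± 7.54 CPM. In males 6 of these 8 were at p under 0.05 and higher on the KD, where 3.56% of all genes tested were at that p in either direction. Ttr was at 18.9 ± 13.3 and 381 ± 885 CPM in males, the library E59 holding most of it. Whether these cells contributed to the members' values was not tested.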

How the data were processed

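Gene expression was measured in bulk by RNA sequencing of total RNA from frozen cortex, with 1 library per mouse, an rRNA-depleting stranded kit and paired reads of 50 bases. The deposited values are raw read counts per gene, which the authors made by aligning reads to mm10 with STAR and counting them with STAR's own gene counter; its version, the annotation and the counted strand are not given in the sources used here. The labels' SD diet is called CD, and CPM was computed here from the deposited counts. Genes passing edgeR's filterByExpr (15660 of 23413) were scaled by the upper quartile and fitted in all 20 libraries with edgeR 4.0.16 (R 4.3.3; robust quasi-likelihood F test, group and library series as terms). Genes were called at an FDR of at most 0.1 (Benjamini-Hochberg over all genes tested) and a 1.5-fold change, thresholds taken from the study's methods. The fits were also run on simulated counts with no series effect and with changes, if any, in KD females only. No result given here rests on that simulation. Alternatives used TMM, DESeq2 1.42.0, other filters, RUVg with 1 factor, subsets of libraries and, chosen after the values had been seen, a GC offset. The members and all lists, including the gene lists and the motifs, were chosen with earlier results of these data known. All members were named. In the lists of other microglia genes, transcription factors, and ligands and partners, the named genes are the 3 of smallest p for the diet in females and the 1 in males, plus Il34, Csf1 and Cx3cl1, and for other cells a defining gene each; genes named for a count of 5 or fewer were chosen after their values were seen. A gene that the rule names among the transcription factors is not reported here. Replicates are separate mice, and counting error is the only error that depth covers.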

Additional observations from a re-analysis of the deposited data

Results flagged for a closer look

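No level of a member stood apart within its group, by the gap of the highest or lowest library over the group's range, in any of 36 checks of 9 genes in 4 groups, where chance gives about 1 in 20. No diet effect on a member differed between the sexes past the threshold.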

How the results depend on the processing

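The depth of S47 libraries, at most 17697342 counts, and the 4 to 6 mice in a group limit the differences that could be detected. No member was called on the diet or between the sexes under any of the 12 alternatives or with any of the 20 mice left out. The number of all genes called moved widely over these: at most 2045 of 15836 (without E227, E249 and E59) and, with 1 mouse left out, 1046 of 15710 (E249) for the diet in females, and 813 of 15949 (E227) between the sexes. No paired analysis was possible because the groups share no replicate numbers. In females the diet effect kept its sign for Aif1, Csf1r, Siglech and Selplg under all of these. Where a sign or a count changed, the cause was not tested. Between the series, the 1 member called was 3 at an FDR of 0.05 with no fold threshold, 0 with no filter on low counts, 0 with a GC offset, and 0 to 2 with 1 mouse left out.

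Among log2 fold changes that changed sign, those of the diet in females were -0.20 (P2ry12), -0.22 (P2ry13), -0.020 (Cx3cr1) and -0.12 (Sall1) in S47 alone, and for Tmem119 -0.085 in S43 alone and -0.082 without E227, E249 and E59. In males they were -0.046 (P2ry13), -0.033 (Aif1) and -0.011 (Siglech) in S43 alone and -0.051 (Sall1) in S47 alone. Aif1 in males was also at -0.020 with no series term, -0.019 with RUVg and -0.00019 in the likelihood ratio test, and Sall1 at -0.030 without E227, E249 and E59. The interaction was 0.016 (P2ry12) and 0.0062 (P2ry13) with RUVg, 0.18 (P2ry12) and 0.13 (P2ry13) without E227, E249 and E59, and 0.32 (P2ry12), 0.36 (P2ry13) and -0.059 (Selplg) in S43 alone. In S47 alone it was 0.090 (Tmem119), -0.068 (Cx3cr1), -0.050 (Siglech) and -0.066 (Sall1). Averaged over the sexes the diet gave -0.013 (P2ry12), -0.0027 (P2ry13) and -0.084 (Sall1) in S47 alone. Females over males gave -0.0034 (Tmem119) and -0.038 (Selplg) with no series term and -0.21 (Selplg) in S43 alone. S47 over S43 gave 0.0031 for P2ry12 with no filter and -0.078 for P2ry13 with the GC offset.

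With each mouse left out in turn, the diet in females ranged from -0.058 to 0.17 (P2ry12), -0.072 to 0.15 (P2ry13), -0.014 to 0.38 (Tmem119) and -0.12 to 0.27 (Sall1). In males it ranged from -0.0057 to 0.13 (P2ry13), -0.059 to 0.067 (Aif1), -0.030 to 0.14 (Siglech), -0.044 to 0.079 (Sall1) and -0.057 to 0.25 (Selplg). The interaction ranged from -0.15 to 0.077 (P2ry12), -0.15 to 0.070 (P2ry13), -0.32 to 0.068 (Tmem119) and -0.13 to 0.25 (Sall1). The averaged diet effect ranged from -0.054 to 0.15 (Sall1), females over males from -0.071 to 0.12 (Tmem119) and -0.015 to 0.18 (Selplg), and S47 over S43 from -0.076 to 0.028 (P2ry12). All 36 group means under upper-quartile scaling moved by less than their SD.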
